A study of Mus musculus with 3 samples.

Results

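Resf1, also named 2810474O19Rik, was examined as a single gene in RNA sequencing coverage of ovulated mouse oocytes from 3 litters. It is 1 of 4979 genes that could be placed on the coverage by the spacing of their own exons, and 1 of the 3652 among them with a mean of at least 10 alignments per 1000000 of the library (CPM). The region, 29 windows of 1000 bases on chromosome 6 in mm9, had been picked because its depth differed between litters and was high in litter 3. Levels and ratios between litters at Resf1 are therefore given as a description, without a test.

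Each litter gave 1 library, and the series holds 1 group of samples. The oocytes came from superovulated females of mixed strain that were LSD1 FL/FL and ZP3::Cre negative, and they were collected by embryonic day 0.5. LSD1 is the protein of the histone demethylase gene Kdm1a. Its FL alleles can be deleted by Cre, and ZP3::Cre, which acts in growing oocytes, was absent from these females, which the labels class as wild type. Their oocytes thus carried the undeleted FL alleles in all 3 litters. Total RNA was amplified with SPIA (Nugen Ovation RNA-Seq kit) before an Illumina library was built. How many females or oocytes entered each library is not given in the sources used here.

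The protein encoded by Resf1, retroelement silencing factor 1, is known from mouse embryonic stem cells as a large partner of the histone methyltransferase SETDB1 in the silencing of endogenous retroviruses. SETDB1 places H3K9 trimethylation on such elements, usually after the co-repressor TRIM28 and KRAB zinc finger proteins have brought it there. Mouse oocytes also restrain retroelements through DNA methylation and through small RNAs, and they store maternal transcripts for the first divisions of the embryo.

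Libraries 3, 1 and 2 held 32028802, 35183199 and 31787887 alignments, where an alignment is 72 bases of summed depth. Alignments beyond the first at their start position made up 85.2%, 85.6% and 85.5% of these libraries. Litter 3 stood apart in its mitochondrial share, 3.12% of alignments against 1.65% and 1.41% in litters 1 and 2. Of 12 oocyte markers 9 could be placed, with a median level of 146 alignments per 1000000 and per kilobase of exon (RPKM) and summed levels of 3721, 3469 and 3842 CPM in litters 3, 1 and 2. Dppa3, a maternal-effect gene singled out after its values were seen, gave 1521, 207 and 157 CPM of these sums, and the other 8 placed markers summed to 2200, 3261 and 3685 CPM. The median ratio of the 9 between litter 3 and the average of the other two was 0.557, and 4 of the 9 were over 2-fold lower in litter 3. Over the 3652 genes the median ratio was 1.01, and 12.9% were over 2-fold lower. Bmp15 (1.36) and Oosp1 (1.20) went the other way, as did Dppa3 (8.36). With each start position counted once, ratios of the 9 ran from 0.584 (Zp3) to 1.09 (Bmp15), with Dppa3 at 1.04. Of 10 cumulus and granulosa cell markers only Cyp19a1, the aromatase gene, could be placed, at 46.1 RPKM in litter 3 against 11.7 and 13.5 RPKM in litters 1 and 2 (113 against 28.8 and 33.0 CPM). Its ratio was 3.66, and 1.29 with each start position counted once. None of 4 sperm markers and none of 4 blood markers could be placed. Placing rests on exon spacing, so a gene that could not be placed may still have had reads. For Prm1, with 2 exons, the covered share of exons minus that between exons was 0.998 at the best position and 0.985 at another. Mos, Foxl2 and Hbb-b1 were not among the genes searched. With all alignments counted, mitochondrial share, Dppa3, Cyp19a1 and, downward, the other oocyte markers in sum thus moved with the higher level of Resf1 in litter 3. Their part in it was not tested. For Dppa3 and Cyp19a1 the difference was much smaller with each start position counted once.

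The exon spacing of Resf1 matched the coverage at 1 place. The longest protein-coding transcript in GENCODE M21 (ENSMUST00000046689.12 of ENSMUSG00000032712.16, plus strand) has 5 exons with 6066 bases in a span of 26236 bases, and exon 3 alone has 4380 bases. An internal exon of that length or more is found in 55 of 21864 annotated protein-coding genes. When the exons were slid along the mm9 coverage over 5 Mb to either side, the best position put coverage on 96.1% of exon bases and on 1.90% of the bases between them. The score, the exon share minus the share between exons, was 0.942 there and at most 0.633 at positions more than 1000 bases away. The best score was shared by 2 shifts, of which 1 was used, so positions to the single base are not settled. Both genes within 1 Mb that had a unique position of their own gave the same shift from GRCm38 within 20 bases. The gene therefore occupied 149257950 to 149284185 of mm9, starting 51 bases before the first window of the region, where no library had coverage.

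Coverage followed the exon borders closely. It began at 149258051, with 1 alignment of litter 3, and ended at 149284184, 1 base before the annotated end of the transcript as placed. There were 6639 bare bases before it and 7068 bare bases after it. The covered bases fell into 12 blocks, of which 8 lay on the placed exons, 2 on exons of other Resf1 transcripts and 2 elsewhere in introns. Those last 2 were thin. One had 0, 3 and 0 alignments and the other 3, 0 and 1 alignments in litters 3, 1 and 2. Depth extended no more than 12 bases past any covered exon edge.

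**Figure D1:**
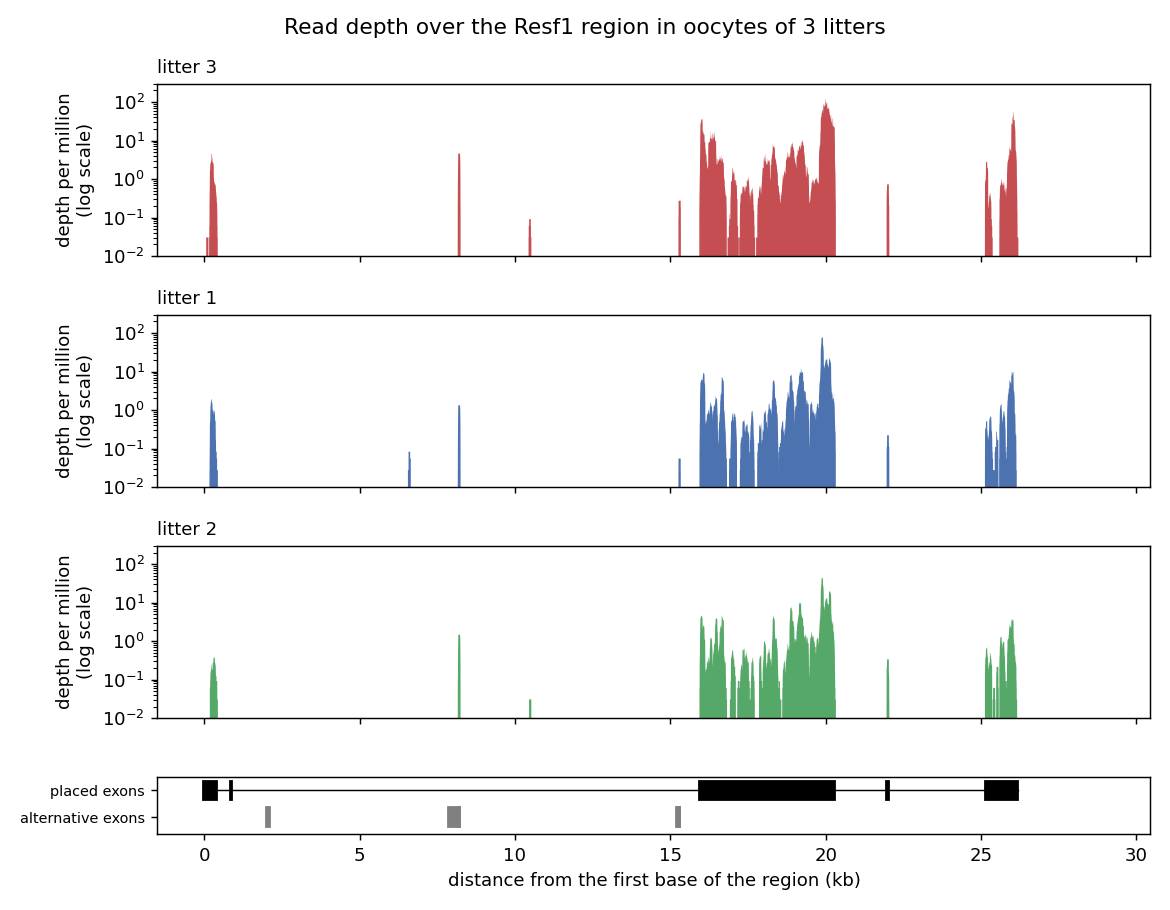
Scaled read depth (depth per 1000000 alignments, log scale) in litters 3, 1 and 2 against distance from the first base of the region in kb, with the placed exons of Resf1 in black and exons of other protein-coding Resf1 transcripts in grey. Depth stands on the long exon 3, exons 1, 4 and 5 and 2 alternative exons in every panel except the 69-base alternative exon in litter 2, and the bases between are almost bare.

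The following 3 kinds of stretch show how the reads lay on the messenger RNA, and their sequences are given from the GENCODE M21 transcript. The first is exon 4 in capitals with 15 bases of its neighbours in lower case, because coverage stopped within 5 bases of this short exon on either side. The second is a pair of stretches inside the long exon that no library covered, in capitals with 25 flanking bases. The third is the 72 bases from the most used start position of the long exon, which was the same in litters 1 and 2 and another one in litter 3.
exon 4: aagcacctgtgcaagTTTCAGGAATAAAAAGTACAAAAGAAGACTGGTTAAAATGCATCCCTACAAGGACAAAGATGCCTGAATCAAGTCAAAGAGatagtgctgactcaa
uncovered 1: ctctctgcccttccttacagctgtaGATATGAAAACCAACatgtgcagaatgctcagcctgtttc
uncovered 2: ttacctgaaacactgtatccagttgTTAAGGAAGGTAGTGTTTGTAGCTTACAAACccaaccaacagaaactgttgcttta
most used start, litters 1 and 2: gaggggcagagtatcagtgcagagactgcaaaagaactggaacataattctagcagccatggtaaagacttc
most used start, litter 3: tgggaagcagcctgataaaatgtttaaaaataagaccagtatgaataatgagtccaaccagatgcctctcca

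Exon 4 occupies 149279948 to 149280028, and the uncovered stretches have 15 and 31 bases and start at transcript bases 1419 and 2322. At the most used start of litters 1 and 2, transcript base 4433, 155 alignments began in litter 3, against 211 and 115 in litters 1 and 2. At that of litter 3, base 4570, 283 alignments began in litter 3, against 58 and 31 in litters 1 and 2. Each library thus also used the start position that was most used in the others.

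Summed over its exons, Resf1 had 21394 alignments in litter 3, against 9772 and 5786 in litters 1 and 2. Scaled to depth and exon length, these were 110 RPKM in litter 3, against 45.8 and 30.0 RPKM in litters 1 and 2 (62.0 ± 42.4, SD, n = 3). Litter 3 was the highest library and litter 2 the lowest. Without litter 3, which stood apart, the mean of the other two libraries was 37.9 RPKM. The median placed gene had a mean level of 11.6 RPKM, and Resf1 was 318th of 3652 genes. By litter it was 169th, 421st and 755th in litters 3, 1 and 2. Reads across exon borders are absent from the tracks, so genes with many short exons lose more of their level than Resf1. Without the outer 72 bases of its exons, the mean at Resf1 was 65.2 RPKM. How far this loss changes its rank was not tested. In bulk libraries such as these, RNA per cell and the number of cells that hold it cannot be told apart.

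Litter 3 was 2.91 times the average of the other two, made of 2.40 against litter 1 and 3.67 against litter 2. Litter 1 was itself 1.53 times litter 2. Over the placed genes the median ratio was 1.01 with quartiles of 0.670 and 1.48, and 2.77% of genes had a higher ratio than Resf1. Litter 3 was over 2-fold above the other litters in 10.8% of the 3652 genes and over 2-fold below them in 12.9%. In windows of 1000 bases with a mean of at least 10 CPM, these shares were 22.2% and 19.3% of 10770 windows. Of the 29 windows of the region 15 were empty and 7 reached that mean. In these the ratio ran from 1.91 to 11.8, with 5 of 7 over 2-fold and 3 of 7 over 4-fold, against 5.59% of all windows over 4-fold. The region was chosen on this very difference, so nothing is read from its place in these distributions.

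**Figure D2:**
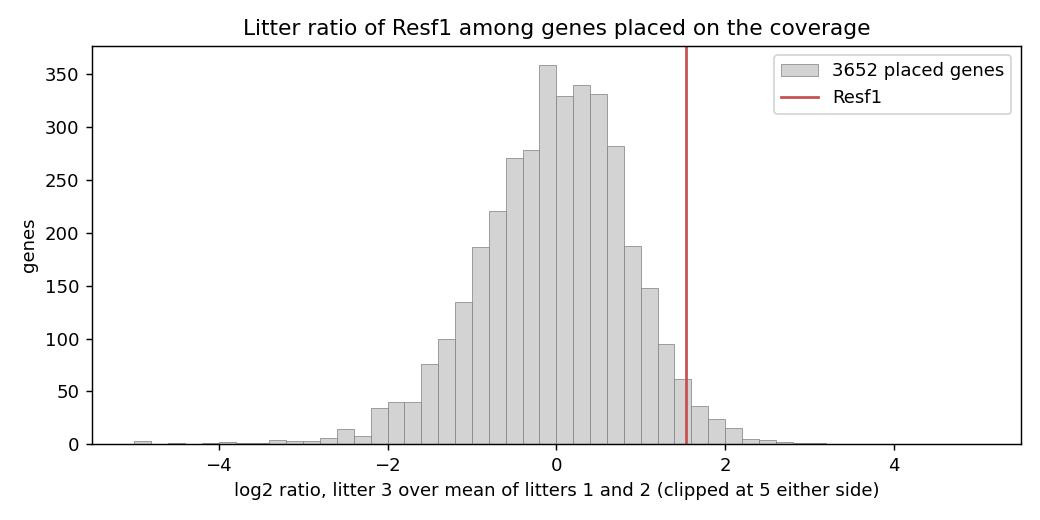
Number of placed genes by the log2 ratio of litter 3 to the average of the other two, with values beyond 5 drawn at 5 and the ratio of Resf1 as a red line. The median ratio of the 3652 genes is 1.01, and 2.77% of them lie to the right of Resf1, whose ratio is 2.91.

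The litters differed more in how often each start position was used than in the number of positions used. The exons of Resf1 held 2286 distinct start positions in litter 3, against 1842 and 1449 in litters 1 and 2. Each was used by 9.34 alignments on average in litter 3, against 5.30 and 3.98 in litters 1 and 2. With each start position counted once, the level was 80.2 RPKM in litter 3, against 60.3 and 52.0 RPKM in litters 1 and 2, and the ratio was 1.43 in place of 2.91. The order of the litters was the same in both counts. Counted once, the median ratio of the placed genes was 0.973 and Resf1 was 266th by ratio. Starts counted once cannot exceed the number of positions in the exons, which narrows differences at a deeply covered gene, and identical starts may be copies of 1 molecule or separate molecules. Which of these they were was not tested.

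The long exon 3, 149273927 to 149278306, carried most of the signal. It had 18593 alignments in litter 3, against 8845 and 5376 in litters 1 and 2, or 133 RPKM against 57.4 and 38.6 RPKM (76.2 ± 49.7, SD, n = 3). It held 86.9% of exonic alignments in litter 3 (95% Wilson interval 86.4 to 87.4), against 90.5% (89.9 to 91.1) and 92.9% (92.2 to 93.5) in litters 1 and 2, while it makes up 4380 of the 6066 exon bases. These intervals and those that follow cover counting error only. They take each alignment as independent and would be too narrow if repeated starts were copies of 1 molecule. The share of the long exon was lowest in the library with the highest level, and its ratio between litters, 2.76, was a little under that of the whole gene. Reads covered 98.5% of its bases in litter 3 and 94.7% and 93.3% in litters 1 and 2. This exon holds most of the coding sequence of the gene.

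Depth within the long exon was uneven, and the same end was deepest in every litter. In 5 equal parts of 876 bases from 5′ to 3′, litter 3 had 126, 8.02, 29.6, 61.6 and 438 RPKM. Litter 1 had 36.1, 4.91, 14.8, 52.3 and 179 RPKM, and litter 2 had 23.8, 3.35, 9.80, 38.9 and 117 RPKM. The fifth part held 57.4% of all exonic alignments in litter 3 (56.7 to 58.0), against 56.4% in each of litters 1 (55.4 to 57.4) and 2 (55.1 to 57.6). The second part was lowest in all 3 litters. The share of the fifth part had overlapping intervals in the 3 litters, while the ratio of its level between litters was 2.96.

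**Figure D3:**
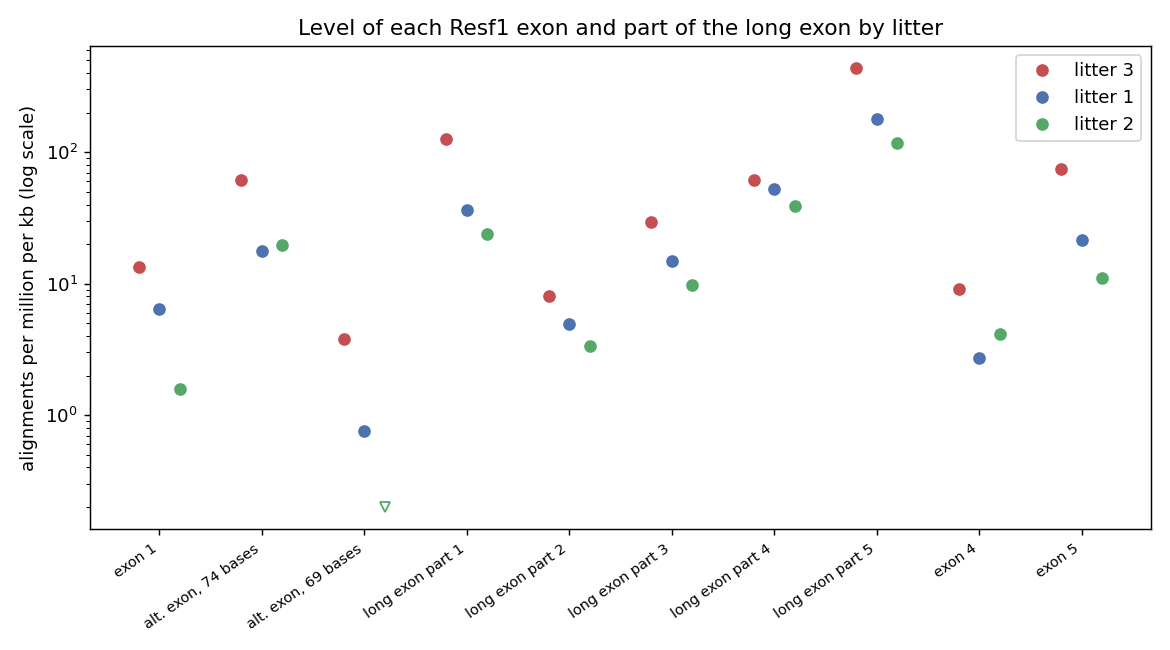
Level in RPKM (alignments per 1000000 and per kb, log scale) of each covered exon, of 2 alternative exons and of the 5 equal parts of the long exon, with 1 point for each of litters 3, 1 and 2. The open triangle marks litter 2 at the 69-base alternative exon, where it had 0 alignments. Litter 3 is the highest in every column, from 1.35 times the mean of the others in part 4 to 4.60 times in exon 5 among the segments with over 20 alignments in each litter.

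The size of the difference between litters depended on the position in the transcript. Litter 3 over the average of the other two was 4.20 in the first part of the long exon, 1.94 in the second, 2.41 in the third, 1.35 in the fourth and 2.96 in the fifth. Of 57 bins of 100 transcript bases with a mean depth of at least 1 alignment, litter 3 was highest in 43, litter 1 in 11 and litter 2 in 3. The ratio exceeded 2 in 32 bins, lay between 1 and 2 in 15 and was under 1 in 10, with a median of 2.41 and quartiles of 1.21 and 4.28. At transcript bases 901 to 1000 the scaled depth (per 1000000 alignments) was 12.8 in litter 3, against 1.10 and 0.75 in litters 1 and 2. At bases 1201 to 1300 it was 3.36 in litter 3, against 4.95 and 3.39 in litters 1 and 2. Bins of 1 exon that lay close to each other thus went from a ratio of 13.9 to one of 0.80.

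The 3′ end of the long exon showed the same change over a short distance. From base 4401 to 4500, the scaled depth was 38.8 in litter 3, against 48.7 and 27.6 in litters 1 and 2, so that litter 3 lay between the others. In the next bin it was 86.4 in litter 3, against 25.3 and 14.7 in litters 1 and 2, and from base 4801 to 4900 it was 23.1, against 1.81 and 1.78. The deepest base of litter 3 was base 4577, with a depth of 4120 in litter 3, against 747 and 411 in litters 1 and 2. In litter 1 the deepest base was 4486 (depth 2823), and in litter 2 it was 4488 (depth 1455, with 2076 in litter 3 at that base). The 5 deepest bins held 56.6%, 57.1% and 54.3% of the exonic depth in litters 3, 1 and 2. Left out, they took the mean level to 29.5 RPKM, while the ratio was then 2.87.

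Over the 57 bins, the log2 depth of litters 1 and 2 correlated with Pearson's r = 0.94, that of litters 3 and 1 with r = 0.81 and that of litters 3 and 2 with r = 0.78. Bins of 1 transcript share the same RNA and library, so these values describe the likeness of the profiles only. The long exon had 39.6% G and C, and over its 43 bins the GC share and the mean depth had r = 0.11 (Spearman's rho 0.15), also as a description.

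**Figure D4:**
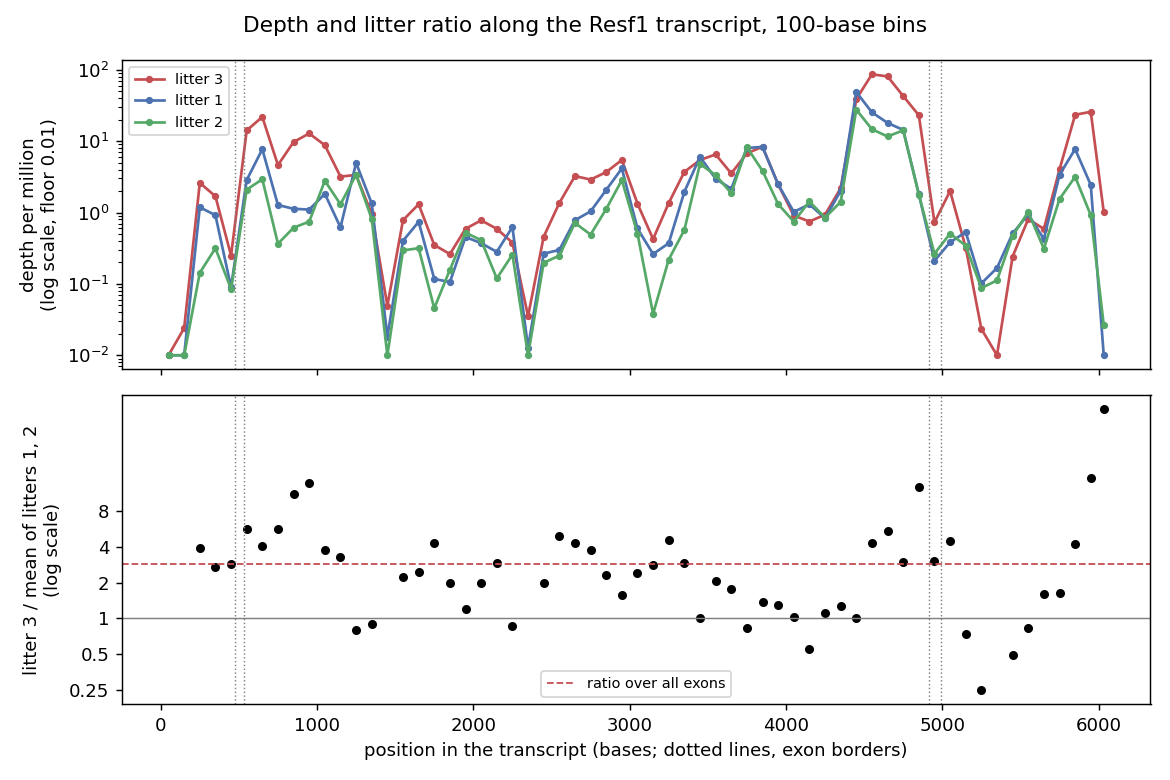
Upper panel, scaled depth (per 1000000 alignments) in 100-base bins along the Resf1 transcript in litters 3, 1 and 2 (log scale, with bins under 0.01 drawn at 0.01); lower panel, the ratio of litter 3 to the average of the other two in bins with a mean depth of at least 1 (log scale), with exon borders dotted. The ratio is over 10 in bins near both ends of the long exon and at the 3′ end of the transcript, while litter 3 lies between the other litters from base 4401 to 4500; the bin from base 5301, with a ratio of 0, cannot be drawn on the log scale.

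Exon 1, of 477 bases, was covered only in its 3′ portion. It had 203 alignments in litter 3, against 107 and 24 in litters 1 and 2, and levels of 13.3, 6.38 and 1.58 RPKM in litters 3, 1 and 2. The first 101 bases were bare in litter 3, against the first 207 and 218 bases in litters 1 and 2, in an exon with 63.5% G and C. The first covered block of litter 3 was 1 alignment, and exon bases 174 to 195 were bare again in that litter. The further reach of litter 3 thus rested mainly on that alignment. Litter 2 had the lowest level of the 3 here, as in the long exon. The 5′ untranslated region as a whole, 586 bases that reach into the long exon, had 32.6 RPKM in litter 3, against 9.86 and 4.69 RPKM in litters 1 and 2 (ratio 4.48).

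Exon 2 has 56 bases and had 0 alignments in all 3 litters. An exon shorter than the 72-base read cannot hold an ungapped alignment without bases of an intron, and coverage reached a few bases past the edges of other short exons, so this 0 gives no level. Exon 4, of 81 bases, had 23.4, 7.75 and 10.7 alignments in litters 3, 1 and 2, or 9.04, 2.72 and 4.16 RPKM. Its level was far under those of the exons beside it, and here litter 2 was above litter 1. An exon of 81 bases leaves few start positions for a 72-base read, so its level cannot be compared with theirs.

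Exon 5, 149283114 to 149284185, has 1072 bases and includes the end of the coding sequence and the whole 3′ untranslated region. It had 2574 alignments in litter 3, against 813 and 376 in litters 1 and 2, or 75.0 RPKM against 21.5 and 11.0 RPKM. Its ratio, 4.60, was above that of the long exon. A shorter annotated form of the last exon ends 733 bases earlier. Past that end the level was 105 RPKM in litter 3, against 29.5 and 14.3 RPKM in litters 1 and 2, and before it 9.84 RPKM in litter 3, against 4.37 and 3.96 RPKM in litters 1 and 2. Reads of all 3 litters therefore reached well into the longer 3′ form.

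Litter 3 had a longer gap in this exon than the others. From exon base 246 to 458 (213 bases, across the end of the shorter form) litter 3 had 0 alignments, against 11.2 and 9.0 in litters 1 and 2, which had shorter bare stretches of 17 to 25 bases there. A count of 0 allows up to 3 alignments, or 0.0937 CPM in litter 3. At the other end of the exon, litter 3 was far higher. From transcript base 5901 to 6000 its scaled depth was 25.8, against 2.43 and 0.92 in litters 1 and 2. The 3′ untranslated region, of 917 bases, held 11.6% of exonic alignments in litter 3 (11.15 to 12.01), against 8.02% (7.50 to 8.58) and 6.0% (5.41 to 6.64) in litters 1 and 2.

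Exons of other Resf1 transcripts accounted for nearly all reads in the introns. An exon of 74 bases at 149266157 to 149266230, present in 2 annotated transcripts, carried a block of 152 alignments in litter 3, against 48 in each of litters 1 and 2. Its level was 61.4 RPKM in litter 3, against 17.7 and 19.7 RPKM in litters 1 and 2 (ratio 3.28). An exon this short leaves few start positions for a read, so its level cannot be compared with those of longer exons. A 375-base form of this exon shares its 3′ edge, and coverage reached no further than 12 bases into the rest of it. An exon of 69 bases at 149273254 to 149273322, shared by 3 transcripts, had 9, 2 and 0 alignments in litters 3, 1 and 2. Exons of 124 and 2951 bases annotated only in other transcripts had 0 alignments in every litter.

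Introns held 167.4 alignments in litter 3, against 54.0 and 49.8 in litters 1 and 2, out of 20170 bases. Mean depth per base was 425 times higher in exons than in introns in litter 3, 602 times in litter 1 and 386 times in litter 2 (471 ± 115, SD, n = 3). Without the alternative exons the introns held 6.38, 3.96 and 1.83 alignments in litters 3, 1 and 2, and the mean of the 3 ratios was 9601 ± 1492. The median of the placed genes was 941, with all introns counted. Coverage at Resf1 was thus almost wholly exonic, in litter 3 as in the other libraries.

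The unevenness of depth at Resf1 lay near the median of the placed genes. The deepest 10% of its exon bases held 67.6%, 64.2% and 63.8% of exonic depth in litters 3, 1 and 2 (65.2 ± 2.11, SD, n = 3), against a median of 63.7% over the placed genes. Among 196 placed genes with 4000 to 9000 exon bases and a mean level within 2-fold of that of Resf1, the median was 65.6%. Their ratios of litter 3 to the average of the other two ran from 0.337 to 3.80 with a median of 1.18, and 7 of them were above Resf1. Exon bases covered in Resf1 made up 92.3%, 90.7% and 89.0% in litters 3, 1 and 2, against a median of 72.1% over all placed genes and 86.8% over the 196.

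Genes beside Resf1 on chromosome 6 did not share 1 pattern. Of 8 protein-coding genes annotated within 500 kb, 4 could be placed. Ipo8, a nuclear import receptor, had 40.2 RPKM in litter 3, against 42.5 and 46.0 RPKM in litters 1 and 2 (ratio 0.908). Caprin2, an RNA-binding protein gene, had a ratio of 0.960, and Sinhcaf, which encodes a subunit of the SIN3 histone deacetylase complex, one of 1.23. Amn1 had 21.2 RPKM in litter 3, against 5.31 and 6.03 RPKM in litters 1 and 2 (ratio 3.73). Its own exon match was weak (score 0.61, next 0.60) and rested on the shift it shared with its neighbours. Gm10203, Bicd1, Dennd5b and Etfbkmt could not be placed.

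The 5 placed genes whose log2 levels, centred over the 3 litters, lay nearest to those of Resf1 were Zfp873, Zfp518a, Slc35a3, Lrrcc1 and Parp8, by Euclidean distance over 3 libraries. Zfp518a, a zinc finger protein gene, had 32.1 RPKM in litter 3, against 13.1 and 8.88 RPKM in litters 1 and 2. The distances ran from 0.025 to 0.085 on the log2 scale. With only 3 libraries, a few of 3652 genes must lie close to any given pattern.

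Other genes of retroelement silencing were described from a list of 34, of which 25 could be placed and 22 had a mean of at least 10 CPM. Their median level was 17.7 RPKM and their median ratio of litter 3 to the average of the other two was 0.989, against 11.6 RPKM and 1.01 over all placed genes. Of the 22, Mael was over 2-fold above in litter 3, where the background was 10.8%, and 6 were over 2-fold below, where it was 12.9%. In mean level 4 were above Resf1, a count subject to the same loss of reads at exon borders. None had a ratio as high, but Resf1 was chosen on this difference and only 2.77% of all placed genes had a higher one. Nothing is therefore read from its place in the list. Those not placed were Atf7ip2, Zfp809, Cbx1, Cbx3, Cbx5, Ehmt2, Suv39h1, Ago2 and Piwil2, while Dnmt3l, Chaf1b and Mov10l1 were under the minimum.

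Among direct partners in H3K9 methylation, Setdb1, the methyltransferase that Resf1 protein binds, had 36.9 RPKM in litter 3, against 40.1 and 41.6 RPKM in litters 1 and 2 (39.6 ± 2.42, SD, n = 3). The gene of its nuclear cofactor, Atf7ip, had 19.4 RPKM in litter 3, against 17.6 and 22.2 RPKM in litters 1 and 2. Litter 3 was the highest library of neither gene. Trim28, the co-repressor that brings SETDB1 to KRAB zinc finger proteins, had 7.46 RPKM in litter 3, against 13.0 and 15.6 RPKM in litters 1 and 2. The 3 litters ran in the opposite order to Resf1 there.

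Components of the HUSH complex, which silences newly integrated and young elements with SETDB1, had ratios over 1. Over all placed genes the median ratio was 1.01 and the upper quartile 1.48, so a ratio over 1 is common. Mphosph8, whose protein reads H3K9 methylation, had 237 RPKM in litter 3, against 124 and 139 RPKM in litters 1 and 2, the highest mean of the list. Pphln1 had a ratio of 1.68 and Fam208a, the gene of TASOR, one of 1.64 at a mean of only 1.56 RPKM. None of the 3 reached 2-fold. With each start position counted once, Mphosph8, Pphln1 and Fam208a had ratios of 1.14, 1.37 and 1.51. Morc2a, an ATPase gene that works with the complex, had a ratio of 1.11.

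Levels of genes tied to DNA methylation and chromatin assembly varied in both directions between litters, and were more often lower than higher in litter 3. Dnmt1, the maintenance methyltransferase, had 114 RPKM in litter 3, against 144 and 139 RPKM in litters 1 and 2. Uhrf1, which guides DNMT1 to DNA, had 45.3 RPKM in litter 3, against 82.9 and 102 RPKM in litters 1 and 2, and Chaf1a, the large subunit of the chromatin assembly factor, had 37.8 RPKM against 86.0 and 102 RPKM. Its partner subunit Chaf1b was under the minimum, at a mean of 2.13 RPKM. Dnmt3a had a ratio of 0.71 and Dnmt3b one of 1.15. Hells, a chromatin remodeller gene that supports DNA methylation, had 4.79 RPKM in litter 3, against 3.17 and 1.87 RPKM in litters 1 and 2 (ratio 1.90). Its own exon match was weak (score 0.64, next 0.59) and rested on the shift it shared with its neighbours. Daxx, an H3.3 chaperone gene, had a ratio of 0.17, although Atrx, its chromatin remodelling partner, had one of 1.15. Ehmt1 (0.43) and Kdm1a (0.47), a histone methyltransferase and the demethylase gene that carries the FL alleles, were also below 0.5. Counted once per start position, Uhrf1, Chaf1a, Ehmt1 and Kdm1a had ratios of 0.76, 0.75, 0.63 and 0.66. By that count Hells had a ratio of 1.53 and Daxx one of 0.22, the only one of these still below 0.5. The genes of the list thus lay on either side of a ratio of 1.

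In the small RNA pathways, Dicer1, whose enzyme makes the small interfering RNAs of mouse oocytes, had 54.5 RPKM in litter 3, against 49.5 and 58.9 RPKM in litters 1 and 2. Mael, a germline gene of transposon silencing, had 11.6 RPKM in litter 3, against 5.06 and 5.39 RPKM in litters 1 and 2. Its ratio of 2.23 was the highest of the list. Counted once per start position, it was 1.35, under those of Hells, Fam208a and Pphln1. Ddx4, the germ cell RNA helicase gene, had 5.63 RPKM in litter 3, against 22.1 and 7.20 RPKM in litters 1 and 2. For Ddx4 it was litter 1 that was high, and litters 3 and 2 lay close together. Its ratio was 0.38, and 0.69 with each start position counted once.

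**Figure D5:**
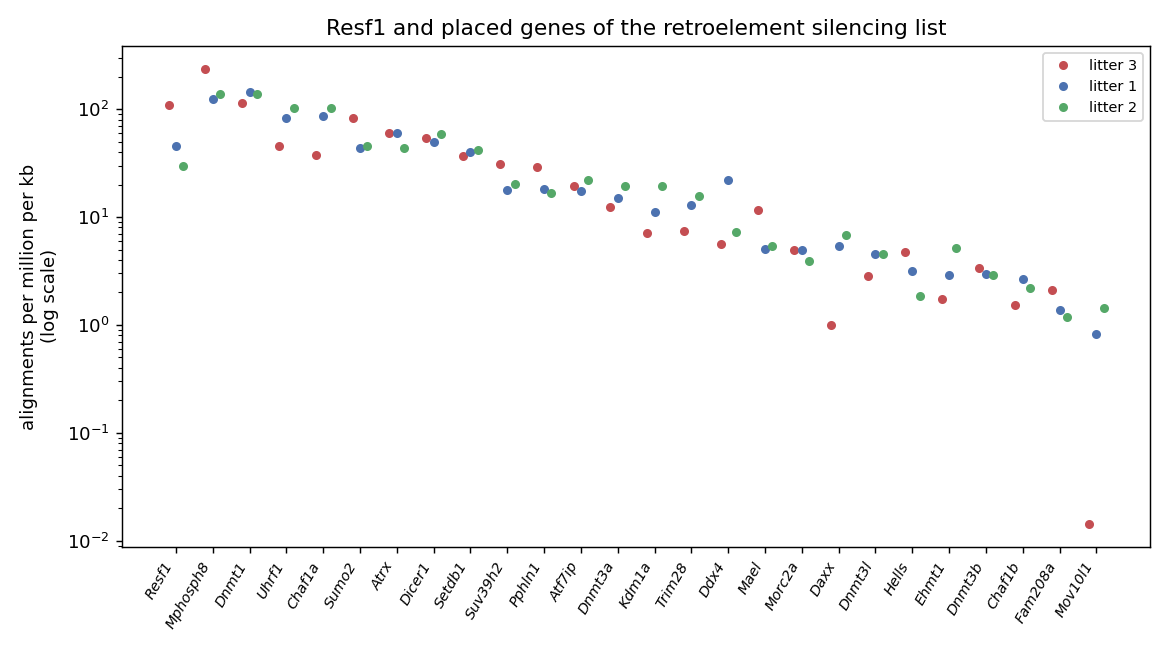
Level in RPKM (alignments per 1000000 and per kb, log scale) of Resf1 and of the 25 placed genes of the retroelement silencing list, ordered by mean level, with 1 point for each of litters 3, 1 and 2. Litter 3 is the highest point at Resf1, Mphosph8 and Mael and the lowest at Dnmt1, Uhrf1, Chaf1a and Trim28, while the points of Setdb1, Atf7ip and Dicer1 lie close together.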

How the data were processed

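The authors deposited 1 coverage track per oocyte library, in which each signal value is the read depth over an interval, not scaled and without strand. Reads were aligned with Bowtie to mm9, per the submitters' processing notes. The version, the handling of repeated reads and of reads with several places, and gapped alignment across introns are not stated there. In the tracks, isolated blocks at depth 1 were all multiples of 72 bases, and 99.9% in each library were exactly 72 bases. Starts rebuilt from the depth were never negative, so the alignments lay as unbroken runs of 72 bases. Reads that cross an exon border by more than a few bases are therefore absent from the levels. Depth times width was divided by the read length of 72 bases to give alignments, and levels are alignments per 1000000 (CPM) or per 1000000 and per kilobase of exon (RPKM). Intervals are Wilson at 95%, and a count of 0 allows 3 alignments, both with each alignment taken as independent.

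No mm9 annotation was used. Exons of the longest basic protein-coding GENCODE M21 transcript of each gene (GRCm38) were slid over the depth summed over litters, and coordinates are those of the resulting mm9 place. A gene was placed with a score of at least 0.4 that led the next by 0.2 and did not go against its neighbours, or with a score of at least 0.4 and the same shift as a unique neighbour. This second route was added after placements, not litter differences, had been seen. Of 2731 unique genes with a unique neighbour within 1 Mb, 97.5% had the same shift within 20 bases. Paralogous and overlapping genes may share reads. The search and the start reconstruction were tested on simulated data.

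Resf1, its region, the gene lists and the comparisons were chosen with earlier results of these data known. Named genes were Resf1, the retroelement silencing list, markers, genes within 500 kb and the 5 nearest in profile. No test was made. Other scalings, starts counted once, other parts of the gene and leaving out each litter were tried, with Python 3.11.15, numpy 2.4.6, pandas 2.3.3 and scipy 1.17.1.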

Additional observations from a re-analysis of the deposited data

How the results depend on the processing

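Of 36 alternative values, 23 were classed as unchanged, 13 as moved and none as reversed. The limit was the spread between litters for levels and shares and 1.5 times the count for windows. The ratio of litter 3 has no such spread, and a small shift, as from 2.91 to 2.97, was classed as moved. The mean level ran from 29.5 (without the 5 deepest bins, chosen after seeing the data) to 92.4 RPKM (without the 100 highest windows in the total) against 62.0, and from 37.9 to 78.0 RPKM when 1 litter was left out, the lowest without litter 3. Litter 3 over the average of the other two, 2.91, was 2.48 without the 100 highest windows, 2.97 without mitochondrial and unplaced sequence, 2.78 with median-of-ratios scaling, 2.76 over the long exon, 2.41 as the median over 100-base bins (also chosen after seeing the data) and 1.43 with each start counted once; without litter 1 or 2 it was 3.67 or 2.40. With starts counted once, the long exon held 84.5% in place of 90.1% and exon over intron depth was 280 in place of 471; without alternative exons (also chosen after seeing the data), it was 9601. Windows raised over 2-fold in litter 3 numbered 2391, against 602 over 4-fold and 12107 with a minimum of 1 CPM. Amplification, repeated start positions and 1 library per litter limit these values, and no counting interval covers them. No paired analysis was possible because all 3 libraries belong to 1 group.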
